A study of Mus musculus with 9 samples.

Results

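Horizontal cells are interneurons of the outer retina, and the genes described here are 6 that mark their identity: Lhx1, Onecut1, Onecut2, Prox1, Tfap2c and Calb1. They were taken as the rows of the count table with these symbols, 6 of 48679 names listed. RNA was sequenced from 9 samples of whole retina of C57BL/6J mice 12 weeks old, and each sample was a pool of 6 retinas from 6 mice, so n counts pools. Mice of the laser groups were injected with the photosensitizer eosin Y (200 mg/kg) and lasered at 50 mW with a spot of 50 µm for 2.5 s. In 3 samples all large veins of an eye had been occluded (retinal vein occlusion, RVO), and in 3 samples the fellow eyes had been lasered by the same scheme away from the large vessels (control), both at d2, whereas 3 samples came from other mice that were not lasered (untreated). RVO and control eyes thus came from the same mice, but which pools share mice is not given, and p-values measure the spread between pools. Untreated samples had total counts of 12377572 to 15245869, control samples of 18897218 to 23419497 and RVO samples of 21022997 to 28993921.

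Horizontal cells contact rod and cone terminals in the outer plexiform layer, receive glutamate from them and feed inhibition back on them. Their formation depends on a small set of transcription factors, among them the cut-homeodomain proteins Onecut1 and Onecut2 and the homeodomain protein Prox1, while the LIM-homeodomain protein Lhx1 sets their position in the inner nuclear layer. None of the genes marks these cells alone when whole retina is measured. Onecut factors are also found in retinal ganglion cells, Prox1 in AII amacrine cells, bipolar cells and lens fibres, Calb1 in amacrine and ganglion cells, and AP-2 factors in amacrine cells. In RNA of whole retina, fewer cells of a type and less RNA per cell cannot be told apart.

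Promoters from RefSeq (GRCm38.p6) are shown because the members had lower values together in RVO eyes. In addition, noncoding genes on the opposite strand start at or near the starts of Lhx1 and Prox1. Windows were kept for 3 of the 6 members. Promoters of the remaining members were not examined, and their absence here does not mean that RefSeq has no entry for them. Each window runs 5′ to 3′ on the strand of the gene, from 250 bases before to 50 bases after the transcription start, and capitals mark the TATA box letters TATAAA, the CCAAT box letters CCAAT and the GC box letters GGGCGG on either strand, with no matches overlapping. The windows are chr11:84525485-84525784 (minus strand) for Lhx1, chr9:74861671-74861970 (plus strand) for Onecut1 and chr1:190170778-190171077 (minus strand) for Prox1.
Lhx1: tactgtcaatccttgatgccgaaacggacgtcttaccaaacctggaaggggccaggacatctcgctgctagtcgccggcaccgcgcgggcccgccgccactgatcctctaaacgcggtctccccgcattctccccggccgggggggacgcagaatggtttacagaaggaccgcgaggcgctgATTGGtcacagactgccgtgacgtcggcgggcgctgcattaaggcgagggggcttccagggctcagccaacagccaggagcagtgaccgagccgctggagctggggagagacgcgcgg
Onecut1: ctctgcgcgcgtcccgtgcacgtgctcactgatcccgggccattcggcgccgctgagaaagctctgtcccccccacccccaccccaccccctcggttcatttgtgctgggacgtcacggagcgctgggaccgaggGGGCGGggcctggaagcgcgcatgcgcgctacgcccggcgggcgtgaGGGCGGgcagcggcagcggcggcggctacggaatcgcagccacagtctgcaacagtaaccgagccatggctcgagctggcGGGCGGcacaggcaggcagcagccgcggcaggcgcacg
Prox1: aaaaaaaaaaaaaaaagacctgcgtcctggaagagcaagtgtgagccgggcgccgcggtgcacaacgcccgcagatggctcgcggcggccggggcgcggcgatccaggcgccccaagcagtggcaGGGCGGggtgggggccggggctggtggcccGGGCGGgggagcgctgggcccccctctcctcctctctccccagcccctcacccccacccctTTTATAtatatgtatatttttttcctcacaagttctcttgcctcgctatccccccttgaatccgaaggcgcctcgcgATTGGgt

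The 3 windows were rich in CpG, with 31 CpG in Lhx1, 38 in Onecut1 and 25 in Prox1, where the median of 32851 promoter windows was 7. Lhx1 and Prox1 each held 1 CCAAT, a motif present in 37.4% of all windows. Onecut1 held 3 GGGCGG and Prox1 held 2, and this motif was present in 35.7% of windows. The TATAAA motif occurred once, in Prox1, and in 13.6% of all windows. Further motifs were searched on both strands and had no match in these windows. They were ATTGAT, known from Onecut factors and present in 7.54% of all windows, the related ATCGAT in 0.925%, the homeodomain motif TAATTA in 5.29% and the AP-2 motif GCCNNNGGC in 16.6%. Prox1 has a second annotated start, whose window is not shown, with 14 CpG and 1 GGGCGG.

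Lhx1 lies on chromosome 11 of GRCm38 (84518284 to 84525535, minus strand), Onecut1 on chromosome 9 (74861921 to 74891781, plus strand), Onecut2 on chromosome 18 (64340020 to 64400987, plus strand), Calb1 on chromosome 4 (15881264 to 15908064, plus strand), Prox1 on chromosome 1 (190118035 to 190170714, minus strand) and Tfap2c on chromosome 2 (172549593 to 172558622, plus strand). All are protein-coding genes of the GENCODE vM21 annotation. Exons of Onecut1 share 2171 bases with the lincRNA Gm20649 on the same strand, which was listed at 0 counts in all 9 samples, so reads of the shared part could have been left uncounted. Exons of Prox1 share 133 bases with the antisense gene Prox1os. Onecut1 and Onecut2 are close paralogs.

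Levels are given as normalised CPM, the count of a gene relative to all counts of its sample, with each sample scaled by its TMM factor over the 9 samples. For a comparison between genes they were divided by exon length. In untreated retinas Prox1 had 26.3 ± 2.02 normalised CPM per kb (SD, n = 3) and Calb1 24.1 ± 1.52, and the samples of these 2 genes overlapped. Tfap2c followed with 3.45 ± 0.0661 and Lhx1 with 1.93 ± 0.196 CPM per kb, each apart from its neighbours in this order. Onecut2 had 0.533 ± 0.0102 and Onecut1 0.473 ± 0.0608 CPM per kb, which overlapped. Onecut1 was divided by its full exon length, including the 2171 bases shared with Gm20649, whose reads could have been left uncounted. Its level per kb may thus be too low, and its place in the order is uncertain in all 3 groups. In control eyes the mean levels per kb followed the same order, with 16.2 ± 1.1 for Prox1 and 0.281 ± 0.0143 for Onecut1, and in RVO eyes they ran from 5.77 ± 3.3 for Prox1 to 0.102 ± 0.0454 for Onecut1. The samples of neighbours in this order were apart throughout in control eyes and overlapped throughout in RVO eyes.

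RVO replicate 2 stood apart from the other RVO samples. All 6 members were lowest in RVO replicate 1, intermediate in replicate 3 and highest in replicate 2. This order was seen in 27.7% of all 16380 genes tested between RVO and untreated eyes and in 49.9% of the 4037 genes that were lower in RVO. RVO replicate 2 also held the most RNA of lens genes. Over 12 lens genes the summed level was 2.79 to 20.7 normalised CPM in untreated, 166 to 2220 CPM in control and 149 to 4460 CPM in RVO samples. Of these genes 2 were at 0 in all untreated samples. Against untreated eyes, 5 of 7 tested were higher in RVO and 9 of 9 tested in control eyes (edgeR's adjusted p under 0.01). Of all genes, 4492 of 16380 were higher in RVO and 4371 of 16066 in control eyes. Control replicate 1 had the highest lens level of the control samples. Results for the members are therefore given with and without RVO replicate 2.

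**Figure D1:**
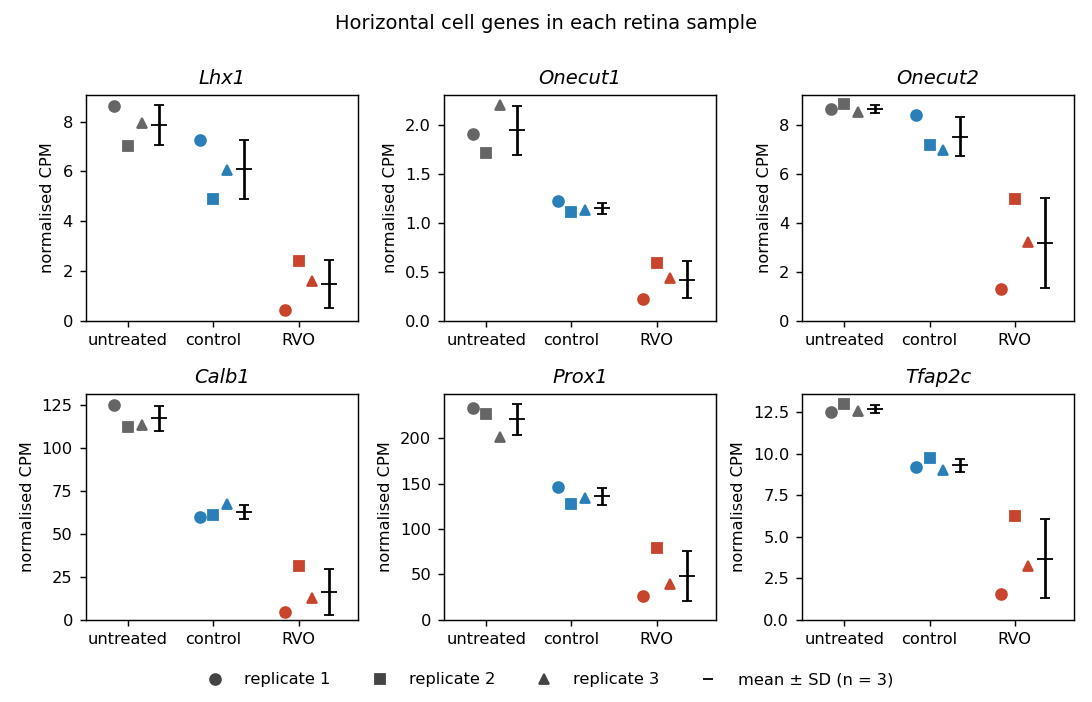
Normalised CPM (linear axis from 0) of the 6 genes in each of the 9 samples, with markers for replicates 1, 2 and 3 and a bar for mean ± SD (n = 3). For each gene the 3 RVO samples lie below all control and untreated samples, with RVO replicate 1 lowest and replicate 2 highest.

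The first question was how these genes differed between RVO and untreated retinas. All 6 had lower levels in RVO, and 5 of them were differentially expressed (quasi-likelihood test of edgeR with Benjamini-Hochberg adjustment, adjusted p under 0.01), where 24.6% of all 16380 genes tested were lower by this criterion. The 5 were Lhx1, Onecut1, Calb1, Prox1 and Tfap2c. The median log2 fold change (log2FC) of the 6 genes was -2.19, beside 0.01 for all genes tested. The groups did not overlap for any of the 6, as for 37.5% of all genes in this direction.

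Lhx1 had 8.63, 7.03 and 7.93 normalised CPM in the untreated samples (replicates 1 to 3), 7.28, 4.9 and 6.07 CPM in the control samples and 0.446, 2.38 and 1.58 CPM in the RVO samples. The control samples overlapped the untreated ones, whereas the RVO samples lay below both. Between RVO and untreated eyes Lhx1 fell by 2.42 on the log2 scale (standard error, SE, 0.46, adjusted p = 0.00189 by edgeR), which is 5.37-fold. Of all genes tested, 0.849% had a lower log2FC than Lhx1. Without RVO replicate 2 its log2FC was -2.99 (adjusted p = 2.4e-06 by edgeR). Without untreated replicate 1 it was -2.35 and the adjusted p was 0.0109 (edgeR).

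Onecut1 was the member with the fewest reads, 21 to 31 counts per untreated sample, 22 to 27 per control sample and 7 to 14 per RVO sample. It had 1.91, 1.72 and 2.21 normalised CPM in untreated, 1.22, 1.11 and 1.13 CPM in control and 0.223, 0.595 and 0.44 CPM in RVO eyes. The 3 groups were separate, with control samples in between. The log2FC between RVO and untreated eyes was -2.22 (SE 0.35, adjusted p = 0.00078 by edgeR), or 4.65-fold lower. Without RVO replicate 2 it was -2.55 (adjusted p = 3.05e-05 by edgeR).

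Onecut2 had 8.63, 8.83 and 8.5 normalised CPM in untreated, 8.41, 7.17 and 6.95 CPM in control and 1.31, 4.97 and 3.21 CPM in RVO eyes. Control samples lay just under the untreated ones and RVO samples clearly lower. Its log2FC between RVO and untreated eyes was -1.44 (SE 0.4, adjusted p = 0.0118 by edgeR), above the threshold of 0.01. It was -1.94 without RVO replicate 2 (adjusted p = 2.24e-05 by edgeR) and -1.42 with DESeq2's Wald test (adjusted p = 0.000606). When trends with GC content and length were removed it was -0.75 (adjusted p = 0.104 by edgeR).

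Prox1 was the most abundant member by counts. It had 234, 227 and 202 normalised CPM in untreated, 146, 128 and 134 CPM in control and 26, 79.3 and 39.9 CPM in RVO eyes. The 3 groups did not overlap. Between RVO and untreated eyes it fell by 2.16 on the log2 scale (SE 0.35, adjusted p = 0.000836 by edgeR), or 4.48-fold, and its log2FC was -2.71 without RVO replicate 2 (adjusted p = 1.17e-09 by edgeR). Lens fibres also express Prox1, and among RVO samples replicate 2, which had the highest Prox1 level, had the highest lens level as well. The part of lens RNA in its values was not tested.

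Tfap2c, which encodes the transcription factor AP-2 gamma, had 12.5, 13 and 12.6 normalised CPM in untreated, 9.18, 9.75 and 9 CPM in control and 1.53, 6.24 and 3.25 CPM in RVO eyes. The spread was small in untreated and control samples and wide in RVO samples. Its log2FC between RVO and untreated eyes was -1.78 (SE 0.41, adjusted p = 0.00529 by edgeR), and -2.41 without RVO replicate 2 (adjusted p = 6.85e-07 by edgeR). The adjusted p was above 0.01 without RVO replicate 3 (0.0239, edgeR) and without any one of the untreated replicates (0.0201 to 0.0206). AP-2 factors are also expressed in surface epithelium, for which 6 marker genes summed to 3.81 to 5.78 normalised CPM in untreated, 4.14 to 6.15 CPM in control and 4.56 to 17.1 CPM in RVO samples. Of the 4 tested, 1 was higher and 1 lower in RVO (against untreated eyes, edgeR's adjusted p under 0.01). Of all 16380 genes, 4492 were higher and 24.6% lower. The part of surface epithelium in the Tfap2c values was not tested.

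Calb1 encodes calbindin, a calcium-binding protein that fills the cell body and processes of horizontal cells and is the usual marker for staining them. It had 125, 112 and 113 normalised CPM in untreated, 59.7, 60.8 and 67.5 CPM in control and 4.75, 31.1 and 12.8 CPM in RVO eyes. RVO replicate 1 retained 4.07% of the untreated mean, replicate 2 26.7% and replicate 3 10.9%. It fell by 2.83 on the log2 scale (SE 0.54, adjusted p = 0.00202 by edgeR), or 7.12-fold, and its log2FC was -3.74 without RVO replicate 2 (adjusted p = 1.24e-08 by edgeR). Without RVO replicate 3 the adjusted p was 0.0121 and without untreated replicate 1 it was 0.0101 (edgeR). Its log2FC was the lowest of the 6, and 0.379% of all genes tested had a lower one. When trends with GC content and length were removed it was -1.98 (adjusted p = 0.00817 by edgeR), behind Lhx1 at -2.68, Onecut1 at -2.24 and Tfap2c at -2.0.

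Leaving out 1 sample changed the number of members with an adjusted p under 0.01 (edgeR), which was 5 with all samples. It was 6 without RVO replicate 1 or 2 and 3 without RVO replicate 3. Without untreated replicate 1 it was 2, and without untreated replicate 2 or 3 it was 4. Of all genes, 21% were lower without RVO replicate 1, 31% without RVO replicate 2 and 16.9% without RVO replicate 3. Without untreated replicates 1, 2 and 3 in turn the shares were 16.6%, 15.8% and 17.8%. All 6 members had an unadjusted p under 0.05 in each of these fits, and the share of all genes at that threshold is not given.

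The second question was whether laser treatment that spared the large vessels was followed by differences of these genes as well. The levels of all 6 were lower in control than in untreated eyes, with a median log2FC of -0.55 beside 0.01 for all genes tested. Calb1, Prox1 and Tfap2c were differentially expressed (edgeR's adjusted p under 0.01), where 25.2% of 16066 genes tested were lower by this criterion. Groups did not overlap for 5 members, all except Lhx1, as for 35.4% of all genes in this direction. The comparison shares the untreated samples with the one above.

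Calb1 fell by 0.88 on the log2 scale after control laser treatment (SE 0.07, adjusted p = 3.37e-07 by edgeR), to 53.7% of the untreated mean. Prox1 fell by 0.68 (SE 0.07, adjusted p = 2.44e-06 by edgeR), to 61.6%. For Tfap2c the log2FC was -0.43 (SE 0.1, adjusted p = 0.00222 by edgeR), with 73.4% of the untreated mean. Calb1 did not pass when trends with GC content and length were removed (log2FC -0.21, adjusted p = 0.0217 by edgeR), and Tfap2c did not pass with scaling by library size only (-0.26, adjusted p = 0.0428).

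Onecut1 had 59.3% of the untreated mean in control eyes (log2FC -0.74, SE 0.23, adjusted p = 0.014 by edgeR). Lhx1 had 77.4% (log2FC -0.34, SE 0.16, adjusted p = 0.0682 by edgeR) and Onecut2 86.8% (log2FC -0.19, SE 0.12, adjusted p = 0.194 by edgeR). These 3 did not pass the test. When trends with GC content and length were removed, Lhx1 passed (log2FC -0.58, adjusted p = 0.00759 by edgeR) and Onecut2 turned to 0.29 (adjusted p = 0.051). In a fit of all 9 samples, which shares 1 estimate of the spread with the more variable RVO group, none of the members passed in this comparison, with edgeR's adjusted p of 0.11 for Calb1, 0.0697 for Prox1 and 0.292 for Tfap2c, and 2 had an unadjusted p under 0.05. In that fit 17.5% of all genes were lower at an adjusted p under 0.01, and the share at an unadjusted p under 0.05 is not given. With DESeq2's Wald test on the 6 samples 3 passed, where 20% of all genes were lower.

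The third question was whether these genes differed between vein occlusion and equivalent laser treatment. All 6 had lower levels in each RVO sample than in each control sample, a separation that 25.8% of 16874 genes tested showed in this direction. None had an adjusted p under 0.01 with edgeR's quasi-likelihood test, where 0.634% of all genes were lower by this criterion. All 6 had an unadjusted p under 0.05 and an adjusted p between 0.0168 and 0.0457 (edgeR, Benjamini-Hochberg), and 17.1% of all genes were lower at an adjusted p under 0.05. With DESeq2's Wald test 5 of the 6 had an adjusted p under 0.01, where 12.8% of all genes were lower in that fit. In a fit of all 9 samples 4 passed, beside 11.8% of all genes, and without a filter on low counts 4, beside 5.85% (edgeR).

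The log2FC between RVO and control eyes was -2.09 for Lhx1 (SE 0.48, adjusted p = 0.0175 by edgeR), and 0.154% of all genes tested had a lower value. It was -1.96 for Calb1 (SE 0.55, adjusted p = 0.0304 by edgeR), with 0.243% of genes lower. Calb1 was below Lhx1 without RVO replicate 2, without control replicate 1 (-2.0 against -1.93) and with the replicate number as a block (-2.29 against -2.19). Prox1 had a log2FC of -1.5 (SE 0.35, adjusted p = 0.019 by edgeR) and Onecut1 of -1.49 (SE 0.34, adjusted p = 0.0168). Tfap2c and Onecut2 showed the smallest differences, with -1.36 (SE 0.42, adjusted p = 0.0422 by edgeR) and -1.27 (SE 0.4, adjusted p = 0.0457). Lhx1 thus differed by 4.25-fold between RVO and control eyes and by 1.27-fold between control and untreated eyes, and only the former difference separated all samples of the groups.

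This comparison depended on RVO replicate 2, the RVO sample with the highest levels of all members. Without it all 6 genes had an adjusted p under 0.01 (edgeR), with log2FCs of -2.69 for Lhx1, -1.86 for Onecut1, -1.8 for Onecut2, -2.9 for Calb1, -2.07 for Prox1 and -2.02 for Tfap2c. In that fit 19.3% of all genes were lower, so the calls rose over all genes and not for the members alone. When any other single sample was left out none of the members passed this threshold, and 0% of all genes were lower by it. In each of these fits the 6 members had an unadjusted p under 0.05 (edgeR), and the share of all genes at that threshold is not given.

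**Figure D2:**
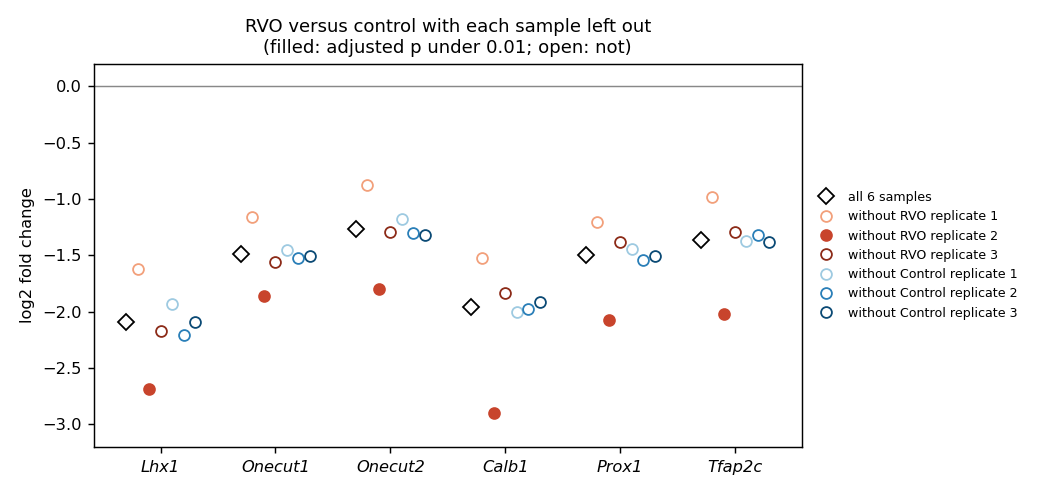
Log2 fold change (linear axis) between RVO and control eyes for the 6 genes with all 6 samples (diamonds) and with each sample left out (circles), filled where edgeR's adjusted p was under 0.01. All values are below 0, and filled symbols occur only without RVO replicate 2.

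Other genes known from horizontal cells were examined as a list of 13, of which 12 were found in the table by symbol and 10 passed the filter for low counts. Sept4 was not matched by its symbol, and Ptf1a and Foxn4, factors of embryonic horizontal and amacrine cell formation, had at most 7 counts per sample and were not tested. Between RVO and untreated eyes 7 of the 10 were differentially expressed and lower and 0 higher (edgeR's adjusted p under 0.01), with a median log2FC of -1.24, where 24.6% of all genes were lower. This count was 3 without RVO replicate 3 or untreated replicate 2 and 4 without untreated replicate 3. In these fits 16.9%, 15.8% and 17.8% of all genes were lower. Between control and untreated eyes 6 were lower, beside 25.2% of all genes, and 2 higher, beside 4371 of 16066 genes. The median was -0.43. In the fit of all 9 samples 1 was lower and 0 higher (edgeR), beside 17.5% of all genes lower. With scaling by library size only 3 were lower, beside 15.5% of all genes. When RVO was compared with control eyes 0 passed, where 0.634% of all genes were lower. At an adjusted p under 0.05 (edgeR) 8 were lower, beside 17.1% of all genes. With an unadjusted p under 0.05 (edgeR) 9 were lower, and the share of all genes at that threshold is not given. With DESeq2 8 passed, beside 12.8% of all genes lower in that fit. Without RVO replicate 2 the number was 9, beside 19.3% of all genes (edgeR).

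Gja10 encodes connexin 57, the gap junction protein that couples horizontal cells. It had 4.9, 4.53 and 4 normalised CPM in untreated, 2.98, 2.43 and 2.26 CPM in control and 0.0637, 0.977 and 0.528 CPM in RVO eyes, where it was counted 2, 23 and 12 times. Its log2FC was -3.13 between RVO and untreated eyes (SE 0.56, adjusted p = 0.0015 by edgeR), lower than that of any member, and -0.78 between control and untreated eyes (SE 0.18, adjusted p = 0.0021). Onecut3, the remaining Onecut gene, had a log2FC of -2.01 in RVO (SE 0.5, adjusted p = 0.00749 by edgeR) and of -0.53 in control samples (SE 0.13, adjusted p = 0.00299), both against untreated eyes. Thus all 3 Onecut genes had lower means in both laser-treated groups, 2 of them past the threshold in RVO and 1 in control eyes.

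The AP-2 genes Tfap2a and Tfap2b, which amacrine cells also express, fell as well. Tfap2b had a log2FC of -1.72 in RVO (SE 0.26, adjusted p = 0.000595 by edgeR) and -0.54 in control eyes (SE 0.06, adjusted p = 5.52e-06), and Tfap2a of -1.15 and -0.39, both past the threshold, all against untreated eyes. Megf11, a receptor that spaces horizontal cells in their mosaic, fell in both, with log2FCs of -1.54 and -0.48. Its paralog Megf10, which Mueller cells also express, had a log2FC of -0.35 in RVO (adjusted p = 0.0461 by edgeR) and of -0.48 in control eyes (adjusted p = 0.000105). Sall3, a zinc finger factor, and Lrrc4, a synaptic adhesion protein, fell in RVO, with log2FCs of -1.0 and -1.33, and did not pass the test in control eyes.

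Slc32a1 and Slc4a3 had higher levels in control than in untreated eyes, unlike the members. Slc32a1 encodes the vesicular transporter for GABA and glycine, which amacrine cells share with horizontal cells. It had 55.2, 54 and 61.4 normalised CPM in untreated, 89.8, 86 and 97.3 CPM in control and 35.8, 70.2 and 41.2 CPM in RVO eyes. It rose in control eyes (log2FC 0.7, SE 0.07, adjusted p = 2.21e-06 by edgeR), and its value in RVO eyes was -0.19 against untreated eyes (SE 0.23, adjusted p = 0.488). The anion exchanger gene Slc4a3 rose by 0.56 in control eyes (SE 0.06, adjusted p = 3.12e-06 by edgeR) and had -0.66 in RVO eyes (SE 0.26, adjusted p = 0.0508). Both calls in control eyes were lost in the fit of all 9 samples, with 0.68 for Slc32a1 (adjusted p = 0.0168 by edgeR) and 0.54 for Slc4a3 (adjusted p = 0.0671). When trends with GC content and length were removed, Slc32a1 was at 0.00 (adjusted p = 0.971 by edgeR) and Slc4a3 at 0.2 (adjusted p = 0.00259). Between RVO and control eyes their log2FCs were -0.89 and -1.23, with adjusted p-values of 0.0236 and 0.0155 (edgeR).

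**Figure D3:**
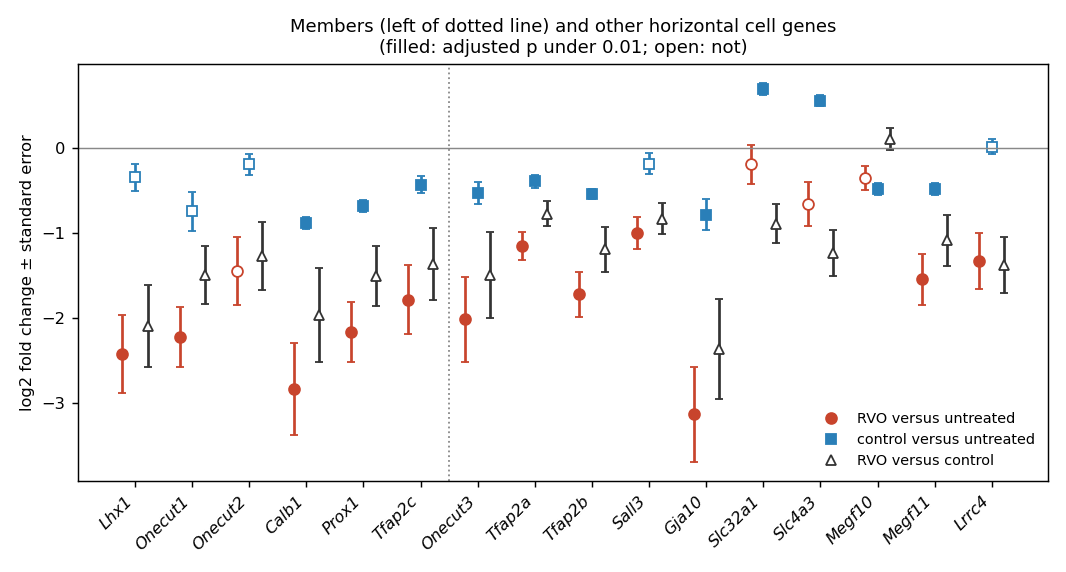
Log2 fold change ± standard error (linear axis, n = 3 per group) in the 3 comparisons for the 6 members and the 10 other horizontal cell genes tested, with filled symbols where edgeR's adjusted p was under 0.01. Values for RVO against untreated eyes are below 0 for all 16 genes, and the filled symbols above 0 are Slc32a1 and Slc4a3 in control against untreated eyes.

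Levels of the members were set beside those of genes of other retinal cells, as the median over each list of the percent of the untreated mean. The members stood at 69.3%, 60.2% and 65.8% in control replicates 1 to 3 and at 11.6%, 33.2% and 21.4% in RVO replicates 1 to 3. Amacrine genes (10) stood at 29.9%, 58.7% and 35.6% in the same RVO samples, ganglion cell genes (10) at 20.6%, 47.6% and 26.3% and bipolar genes (9) at 14.8%, 54.2% and 28.4%. The 10 other horizontal cell genes stood at 29.8%, 58.3% and 35.4%, next to the amacrine genes and above the ganglion cell genes, so the low medians were those of the 6 members and not of both horizontal cell lists. Rod genes (10) stood at 56.1%, 56.5% and 55.6%, without the difference between RVO samples that the inner retinal lists showed. Mueller cell genes (8) stood at 46.9%, 86.6% and 73.3%. The difference between lists was not tested, and the lists are short.

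In counts of genes, 9 of 10 amacrine, 10 of 10 ganglion cell, 7 of 9 bipolar and 9 of 10 rod genes had lower levels after RVO (against untreated eyes, edgeR's adjusted p under 0.01), where 24.6% of all genes were lower. Their median log2FCs were -1.28, -1.64, -1.55 and -0.78, beside -2.19 for the members and -1.24 for the other horizontal cell genes. In control eyes the medians were -0.35, -0.42, -0.15 and -0.54, beside -0.55 for the members and -0.43 for the other horizontal cell genes. Against control eyes the medians in RVO were -0.96, -1.3, -1.47 and -0.35, beside -1.49 and -1.13. Leukocyte genes moved the other way except 1, with 7 of 8 higher in RVO than in untreated eyes, where 4492 of 16380 genes were higher. The summed level of the 8 leukocyte genes was 49.2 to 71.6 normalised CPM in untreated, 87.6 to 111 CPM in control and 160 to 181 CPM in RVO samples. The part of this RNA in the lower levels of the members was not tested.

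**Figure D4:**
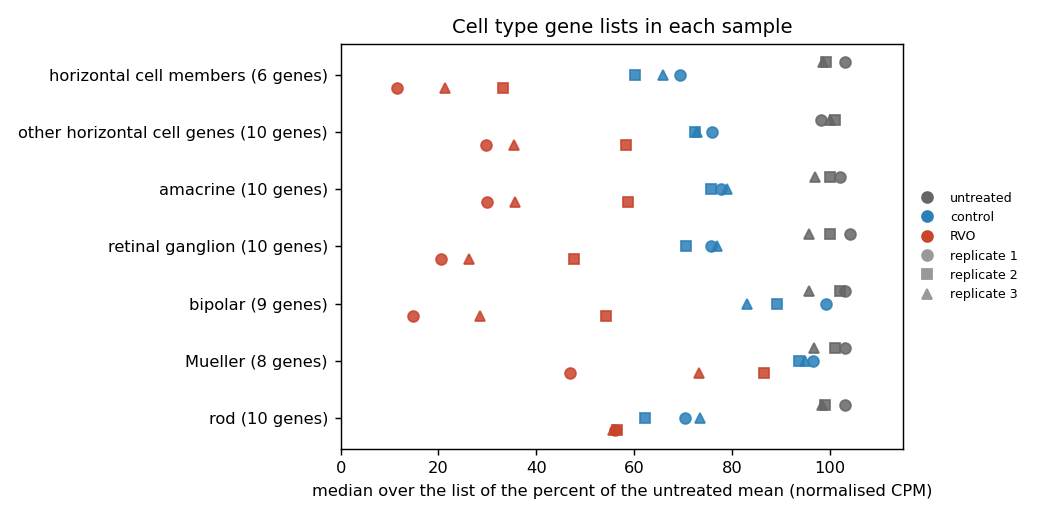
Median over each gene list of the percent of the untreated mean (normalised CPM, linear axis), for each untreated, control and RVO sample, with markers for replicates 1 to 3. RVO samples are lowest for the 6 horizontal cell members, at 11.6% to 33.2%, and lie close together for rod genes, at 55.6% to 56.5%.

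The noncoding genes beside Lhx1 and Prox1 were chosen after their values were seen. Lhx1os is a lincRNA gene that shares no bases with Lhx1 and runs away from it, and Prox1os is annotated as antisense. Lhx1os starts at 84525660 on the plus strand, inside the Lhx1 window shown above, and Prox1os (190170296 to 190217276, plus strand) overlaps the 5′ end of Prox1. Lhx1os had 1.09, 0.859 and 2.21 normalised CPM in untreated, 2.08, 1.92 and 1.8 CPM in control and 0.0637, 1.1 and 1.19 CPM in RVO eyes. Its log2FC was -0.88 between RVO and untreated eyes (adjusted p = 0.325 by edgeR). Prox1os had 5.08, 5 and 3.5 CPM in untreated, 6.15, 5.2 and 5.23 CPM in control and 1.05, 4.16 and 1.85 CPM in RVO eyes, with a log2FC of -0.93 (adjusted p = 0.101 by edgeR). In control eyes the mean of either noncoding gene was above the untreated mean and that of its neighbour below it. Neither noncoding gene passed the test in any of the 3 comparisons (edgeR's adjusted p of 0.0576 to 0.325). Libraries were stranded, but whether the counting used strand is not given in the sources used here, so reads of the part where Prox1 and Prox1os overlap could be shared.

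Genes with the most similar pattern were sought for each member among 15851 other genes tested in all comparisons, as the root mean square difference of log2 CPM over the 9 samples after centring each gene. Prox1 had the closest neighbours, Slc4a10 at 0.06, Tmem215 at 0.08 and Ryr3 at 0.08, where the median over all genes was 1.06. Slc4a10, which encodes a bicarbonate transporter of neurons, had mean levels of 148, 92.4 and 33.4 normalised CPM in untreated, control and RVO eyes. For Tfap2c the nearest were Rnf152 at 0.1, Slit2 at 0.1 and Grik1 at 0.12, the last a kainate receptor subunit of bipolar cells. Onecut1 was nearest to Lingo2, Rab9b and Ipcef1, all at 0.13, and Onecut2 to Vstm2b at 0.13, Tpbg at 0.14 and Vip at 0.15. Lhx1 was nearest to Ntng1 at 0.24, Abcc9 at 0.25 and the bipolar transcription factor gene Vsx1 at 0.25. Calb1 was nearest to Gsg1l2 at 0.19, Vsx1 at 0.2 and Gja10 at 0.21. These values describe 9 shared libraries in 3 groups. They were computed with a prior count of 2 and include sampling noise, which is larger at low counts. Counts per RVO sample were 816 to 1868 for Prox1 and 7 to 14 for Onecut1. The order of members by closeness may thus partly follow depth, which was not tested.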

How the data were processed

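RNA of whole retina was sequenced with stranded poly-A libraries. The authors mapped reads with STAR 2.5.2b against mouse (Gencode vM11), counted them per gene with featureCounts (Subread 1.5.1) and deposited the raw counts, without normalization. Handling of reads that match several genes is not given in the sources used here. Spike-in names (92) had 0 counts and were left out.

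Samples were grouped by their titles. Each pair of groups was fitted on its own with edgeR 4.0.16 in R 4.3.3 (filterByExpr, TMM factors, two-sided quasi-likelihood test, Benjamini-Hochberg adjustment over all genes tested, threshold 0.01). Standard errors were computed from the F statistic. DESeq2 1.42.0 was an alternative. Coordinates and exon lengths were from GENCODE vM21 (GRCm38), which matched 46372 names once, and promoters from RefSeq. The procedure was tested on simulated data. The members and lists were chosen with earlier results of these data known. Genes named were the members, other horizontal cell genes called at least once, and the 3 genes most similar to each member. Alternatives were other scaling, no filter, DESeq2, a fit of all 9 samples, a replicate block, leaving out each sample, removal of GC and length trends and leaving out lens genes. Replicates were separate pools, which differed by more than sampling noise (chi-square per degree of freedom 3.15 to 54.1). Protein sequences were not used here.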

Additional observations from a re-analysis of the deposited data

How the results depend on the processing

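The direction of the 6 members was the same under all alternatives in RVO against untreated and RVO against control eyes, and in control against untreated eyes except for Onecut2, whose log2FC was 0.29 with GC content and length trends removed, an alternative chosen after seeing the data as was leaving out lens genes. With library sizes as the only scaling, the median log2FC over all tested genes shifted by 0.21 for RVO and 0.17 for control eyes, both against untreated eyes, and the share of called genes that were higher went from 52.7% to 68.5% and from 51.9% to 70.4%. The number of members called moved in RVO against control eyes from 0 to 4 without a filter on low counts, 5 with DESeq2, 4 in the fit of all 9 samples and 6 at an adjusted p under 0.05, and for the other horizontal cell genes from 0 to 8 under each of these 4. In control against untreated eyes the fit of all 9 samples left 0 members and 1 of the 8 other horizontal cell genes, and scaling by library size left 5 of the latter. In these fits 17.5% and 15.5% of all genes were lower. Leaving out 1 sample gave 2 to 6 members and 3 to 9 other genes in RVO against untreated eyes and 0 to 6 members and 0 to 9 other genes in RVO against control eyes, the highest values without RVO replicate 2 (for the members in the former comparison also without RVO replicate 1). For the other genes the count of 7 in RVO against untreated eyes was 3 without RVO replicate 3 or untreated replicate 2 and 4 without untreated replicate 3. Over the fits with 1 sample left out, 15.8% to 31% of all genes were lower in RVO against untreated eyes. Over all genes the 563 calls between RVO and control eyes became 892 with library sizes only, 3309 without a filter, 4043 with DESeq2, 3853 in the fit of all 9 samples, 5836 at 0.05 and 0 to 6257 when 1 sample was left out. The cause of these differences was not tested. With the replicate number as a block, 6 members were called in RVO against untreated eyes, where 24% of all genes were lower. In control against untreated eyes 3 were called, beside 25.2% of all genes lower. In RVO against control eyes 0 were called and 0 of all genes passed. There 6 members had an unadjusted p under 0.05 (edgeR), and the share of all genes at that threshold is not given. Same-numbered RVO and control samples had correlations of their deviations from the group means of -0.166, -0.182 and 0.087. Deviations from the mean of 3 pools depend on each other, so these values cannot decide which pools share mice. The numbers were not taken as pairs because that is not given. Onecut1, with 7 to 14 counts per RVO sample, and Gja10 were limited most by depth.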

Other observations

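Paralogs and cofactors of the members formed a further list of 13 genes, of which 12 were tested. Genes named here were chosen after their values were seen. In RVO against untreated eyes 7 were lower and 1 higher (edgeR's adjusted p under 0.01), with a median log2FC of -1.3. Of all 16380 genes, 24.6% were lower and 4492 higher. In control against untreated eyes 5 were lower, beside 25.2% of all genes, and 1 higher, beside 4371 of 16066 genes, with a median of -0.23. In RVO against control eyes 0 passed the threshold, where 0.634% of all genes were lower. At an adjusted p under 0.05 (edgeR) 8 were lower, beside 17.1% of all genes. The median was -1.27. The LIM-homeodomain gene Isl1 is expressed in bipolar, amacrine and ganglion cells. Against untreated eyes its log2FC in RVO was -2.08 (SE 0.37, adjusted p = 0.00148 by edgeR). In the same comparison Lhx4 of cone bipolar cells had a log2FC of -1.27 (SE 0.26, adjusted p = 0.00285 by edgeR). Lhx2, which Mueller cells express, had -0.12, also against untreated eyes (SE 0.1, adjusted p = 0.306 by edgeR).

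The 2 genes for cofactors that bind LIM-homeodomain proteins differed in direction. Ldb1 rose from 73 ± 2.42 normalised CPM in untreated eyes (SD, n = 3) to 107 ± 7.41 CPM in control and 99 ± 5.58 CPM in RVO eyes, with log2FCs of 0.56 and 0.47 (adjusted p = 4.69e-06 by edgeR and 0.00075). Ldb2 fell, with log2FCs of -1.0 in control and -2.29 in RVO eyes (adjusted p = 1.04e-06 by edgeR and 0.0002). Calb2, which encodes calretinin, the relative of calbindin found in amacrine and ganglion cells, fell, with -0.28 in control and -1.64 in RVO eyes (adjusted p = 0.000712 by edgeR and 0.000905). Among amacrine genes, Slc17a8, which encodes the vesicular glutamate transporter VGLUT3, was an exception in RVO. It had 25.7 ± 3.46 CPM in untreated, 19 ± 0.114 CPM in control and 36.3 ± 10.5 CPM in RVO eyes. Between RVO and control eyes its log2FC was 0.94 (SE 0.21, adjusted p = 0.016 by edgeR), which did not pass the threshold. Between RVO and untreated eyes it was 0.53 (adjusted p = 0.0578 by edgeR), and these groups overlapped. In control eyes Slc17a8 was lower than in untreated eyes (log2FC -0.41, adjusted p = 0.00244 by edgeR).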
